A study of Mus musculus with 29 samples.

Results

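The complement genes described here are the chains of C1q (C1qa, C1qb and C1qc), the serine proteases C2 and Cfb, the central component C3, properdin (Cfp) and the anaphylatoxin receptors C3ar1 and C5ar1. They were taken by gene symbol from a table of 23930 genes, in which 8 of the 9 named genes have a row. Cfb was not analysed here. Their mRNA was measured in 29 libraries of macrophages sorted from untreated C57BL/6 wild-type mice and from Rnaset2-/- mice, which lack both Rnaset2a and Rnaset2b and therefore the lysosomal ribonuclease RNase T2. The spleen gave 3 libraries of Ly6Chi and 3 of Ly6Clow macrophages from wild-type mice, and 3 of Ly6Chi and 4 of Ly6Clow macrophages from Rnaset2-/- mice. The liver gave 3 libraries of each subset from each genotype and 4 libraries of Kupffer cells (KCs), the resident macrophages of the liver, from wild-type mice only. By the labels, both subsets were sorted as CD11b+ cells lacking Ly6G, SiglecF and NK1.1, the Ly6Clow subset also as Fcgr4+, and KCs as F4/80+ Tim4+ cells with intermediate CD11b and low PDCA-1. The methods of the study describe the hepatic gates differently, with hepatic macrophages as F4/80+ cells with high CD11b and KCs as F4/80+ cells with low CD11b, and name neither SiglecF nor Tim4 among the sorting markers. Age, sex and pooling of mice are not given for single libraries, and the labels do not say that replicates are separate mice, so that p-values measure the spread between these libraries, which may in part be technical.

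Complement is a cascade of plasma proteins that tags microbes and dying cells for uptake. C1q, a hexamer of bundles made from its A, B and C chains, starts the classical pathway, C2 and factor B supply the proteases of the convertases that cleave C3, and properdin stabilizes the convertase of the alternative pathway. Cleavage of C3 and C5 releases the peptides C3a and C5a, which signal through C3ar1 and C5ar1 on myeloid cells. The liver makes most C3 and C2 in plasma, whereas C1q comes mainly from tissue macrophages and dendritic cells, and properdin from myeloid cells.

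Libraries held 11175843 to 21167602 reads, with the 3 splenic Ly6Chi Rnaset2-/- libraries at 20404155 or more and all others at 14572065 or fewer. A count of 3 reads, taken as the smallest detectable level, corresponded to 0.142 to 0.268 reads per 1000000 (RPM). This floor covers counting error only. The marker genes Clec4f and Ccr2 followed the sort labels. Clec4f, which marks KCs, was at 1674 to 5470 RPM in KCs and at most 63.3 RPM elsewhere. The summed level of 10 KC markers, Clec4f among them, did not separate KCs from hepatic Ly6Clow Rnaset2-/- macrophages. It was at 7968 to 22460 RPM in KCs and 6716 to 12710 RPM in the latter. Ccr2 was at 323 RPM or more in the libraries labelled Ly6Chi and at 219 RPM or less in all others. Summed Ly6Clow monocyte markers did not separate the hepatic Rnaset2-/- subsets, at 4510 to 6374 RPM in Ly6Clow and 1662 to 7447 RPM in Ly6Chi libraries. The Rnaset2 and Ly6c genes were not analysed here, so that the genotype and the sorting gene were not checked directly. Xist, which is expressed from the inactive X chromosome of female cells, was at 0.154 RPM or less in all 6 hepatic Rnaset2-/- libraries and at 321 RPM or more in all 10 hepatic wild-type libraries, so that hepatic genotype differences and sex cannot be told apart. In the spleen, 1 library, Rnaset2-/- Ly6Clow replicate 2, was under 1 RPM. Replicate 1 of hepatic Ly6Chi and of hepatic Ly6Clow Rnaset2-/- macrophages and replicate 3 of KCs stood apart from the other libraries of their groups in several of the genes below. Some results that rest on them are given with and without them, and others with all libraries only. A gene was called changed at more than 1.5-fold and an adjusted p below 0.05 in limma on log2(RPM + 1) after scaling, with adjustment over all genes tested. The added 1 understates the change of genes near the floor. Where a gene reached 1 RPM only in the group in which it was high, that group alone let it pass the filter on low values, and its adjusted p is given from the fit without the filter. Each gene is read through its own amplicon, so that levels were compared between groups and not between genes. In sorted bulk samples, fewer cells of a type and less RNA per cell cannot be told apart.

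By the GENCODE vM21 annotation of GRCm38, the C1q genes lie side by side on the minus strand of chromosome 4, C1qb at chr4:136880129-136886187, C1qc at chr4:136889804-136893065 and C1qa at chr4:136895917-136898803. C2 (chr17:34862604-34898265) lies 85 bases from Cfb, while C3 (chr17:57203970-57228136), Cfp (chrX:20925454-20931555), C3ar1 (chr6:122847138-122856161) and C5ar1 (chr7:16246743-16259540) lie apart, all on the minus strand. The 250 bases before the RefSeq start site (GRCm38.p6, gene strand, 5′ to 3′) are shown for C1qb and C3, which had opposite patterns across the subsets, and for C3ar1, which had the largest genotype difference of the spleen among these genes. They lie at chr4:136886201-136886450, chr17:57228137-57228386 and chr6:122856158-122856407, and capitals mark the match to the ETS motif GAGGAA.
C1qb: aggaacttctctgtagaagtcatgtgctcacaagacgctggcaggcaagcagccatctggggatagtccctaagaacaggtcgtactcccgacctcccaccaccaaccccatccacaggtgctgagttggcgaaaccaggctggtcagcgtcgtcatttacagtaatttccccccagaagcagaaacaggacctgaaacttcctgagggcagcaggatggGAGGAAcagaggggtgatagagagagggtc
C3: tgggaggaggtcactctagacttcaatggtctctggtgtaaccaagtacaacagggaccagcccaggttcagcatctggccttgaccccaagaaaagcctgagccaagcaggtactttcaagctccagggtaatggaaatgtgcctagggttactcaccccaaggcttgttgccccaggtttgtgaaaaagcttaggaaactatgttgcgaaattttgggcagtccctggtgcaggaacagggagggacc
C3ar1: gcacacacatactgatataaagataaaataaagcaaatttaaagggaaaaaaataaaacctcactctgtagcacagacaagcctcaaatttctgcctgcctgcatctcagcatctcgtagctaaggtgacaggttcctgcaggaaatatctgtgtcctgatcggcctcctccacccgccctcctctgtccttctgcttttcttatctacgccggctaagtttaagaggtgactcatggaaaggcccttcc
The windows of C1qb, C1qc, C3, Cfp, C3ar1 and C5ar1 were searched on both strands for 5 motifs. The RefSeq start sites of C1qc and C5ar1 lie inside the genes as annotated by GENCODE (RefSeq minus GENCODE position -151 and -202 bases). Parts of both windows are thus within these genes. The ETS motif GAGGAA was found in C1qb, beginning 30 bases before the start site, and on the opposite strand in C1qc, beginning 193 bases before it. The shorter GGAA, which also occurs in the C3 and C3ar1 windows, was neither searched nor marked. GAGGAA is in 23.1% of 27025 promoter windows of the same length. The Maf half-site TGCTGAC (3.72% of windows), the interferon-stimulated response element (3.04%), the NF-kB motif (0.94%) and the GAS motif TTCNNNGAA (7.18%) had no match in these windows.

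Across the 9 groups, C1qb, C1qc, C2, Cfp and C3ar1 were highest in KCs or in hepatic Ly6Clow macrophages of Rnaset2-/- mice, whereas C3 was highest in Ly6Chi macrophages. C1qb, the B chain, was at a mean of 4233 ± 264 RPM (SD, n = 3) in hepatic Ly6Clow Rnaset2-/- macrophages and 2782 ± 942 (n = 4) in KCs, and lowest at 13.6 ± 5.45 (n = 3) in splenic Ly6Chi Rnaset2-/- macrophages, which spans 312-fold. C1qc, the C chain, was at a mean of 28.5 RPM in KCs (17.5 to 39.35 over 4 libraries) and 14.7 ± 1.74 in hepatic Ly6Clow Rnaset2-/- macrophages, and was at a mean of 2.998 RPM or less in the other 7 groups. In RPM as deposited, the ranges of these leading pairs of groups did not overlap for C1qb or for C1qc. The order of the pair was the opposite in the 2 genes, but this depended on the scaling. After scaling, C1qb was called higher than in KCs (log2 difference 1.21) and C1qc was not called (-0.34). With RPM as deposited, C1qc was called lower and C1qb was not called.

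C1qa, the A chain, stayed close to the floor and did not pass the filter on low values in any comparison. Its values were 0.539, 1.25 and 1.15 RPM in hepatic Ly6Clow Rnaset2-/- macrophages and 0.573, 0.416, 0.262 and 0.419 RPM in KCs. These were its highest levels, and in the other 7 groups it did not exceed 0.230 RPM. Without the filter it was called higher in hepatic Ly6Clow Rnaset2-/- macrophages than in hepatic Ly6Clow wild-type macrophages (log2 difference 0.76, adjusted p = 0.0214), hepatic Ly6Chi Rnaset2-/- macrophages (0.84, adjusted p = 0.0391), splenic Ly6Clow Rnaset2-/- macrophages (0.88, adjusted p = 0.00524) and KCs (0.68, adjusted p = 0.0308). These calls rest on 38 reads in 3 libraries, against 5, 5, 4 and 20 reads in the other groups. DESeq2 on the recovered reads called the difference from hepatic Ly6Chi (adjusted p = 0.0483) and splenic Ly6Clow Rnaset2-/- macrophages (adjusted p = 0.00721), but not that from hepatic Ly6Clow wild-type macrophages (adjusted p = 0.0534) or KCs (adjusted p = 0.101).

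C2, the protease of the classical C3 convertase, was at 41.1, 46.0, 16.8 and 28.5 RPM in KCs. It was at 6.53, 4.25 and 10.8 RPM in hepatic Ly6Chi Rnaset2-/- macrophages and at 5.47, 0.623 and 2.07 in hepatic Ly6Clow Rnaset2-/- macrophages. In wild-type hepatic subsets and in all splenic groups it stayed below 1 RPM in every library. Properdin mRNA was at 1013 ± 361 RPM in KCs, 361 ± 166 in hepatic Ly6Clow Rnaset2-/- macrophages and between 44.7 and 131 on average elsewhere. C3ar1 was at 232 ± 48.8 RPM in KCs and 1.83 ± 0.127 in splenic Ly6Clow wild-type macrophages, and its 3 highest groups, KCs, hepatic Ly6Clow Rnaset2-/- and hepatic Ly6Clow wild-type macrophages, did not overlap. C3 ranged from 3654 ± 559 RPM in splenic Ly6Chi Rnaset2-/- macrophages to 415 ± 36.9 in splenic Ly6Clow wild-type macrophages. C5ar1 varied least, from 63.9 ± 12.9 to 9.86 ± 15.4 RPM, and all neighbours in the order of its group means overlapped.

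**Figure D1:**
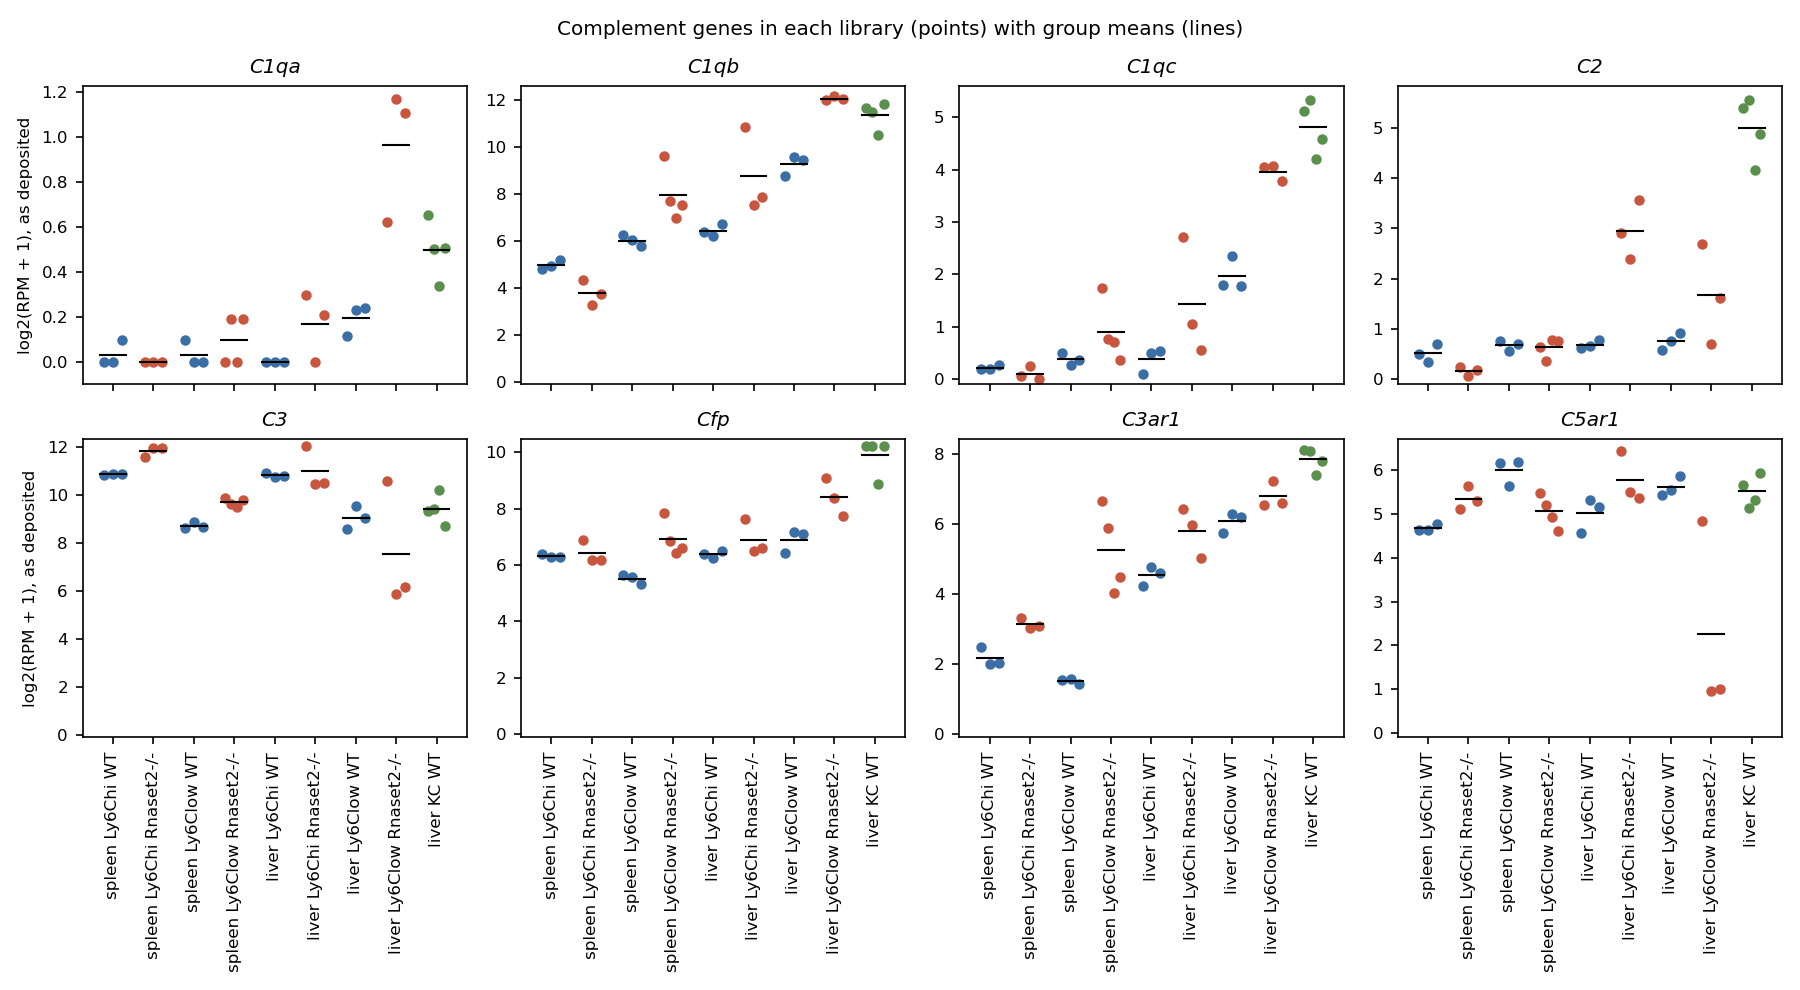
Level of 8 complement genes as log2(RPM + 1), as deposited, on the y axis (a separate scale for each gene) in the 9 groups on the x axis, with 1 point per library (wild type blue, Rnaset2-/- red, KCs green) and a line at the group mean of these log2 values. C1qb spanned 312-fold between group means and C5ar1 6.49-fold, and replicate 1 of both hepatic Rnaset2-/- subsets lay apart for C3.

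In the spleen, the effect of RNase T2 deficiency was asked in each subset. In Ly6Chi macrophages, the monocyte-like subset, 5 of the 8 genes passed the filter on low values and 4 were called, 3 higher and 1 lower in Rnaset2-/- mice, where 22.2% of all genes tested were called (9.77% higher and 12.5% lower, or 733 genes higher and 1620 lower with RPM as deposited). C1qb was at 27.3, 29.7 and 35.5 RPM in wild-type and at 19.5, 8.72 and 12.5 RPM in Rnaset2-/- libraries. No Rnaset2-/- value reached the lowest wild-type value, and C1qb fell by 1.08 on the log2 scale (SE 0.23, adjusted p = 0.0043). C3 was at 1791, 1841 and 1881 RPM in wild-type and at 3008, 3969 and 3984 RPM in Rnaset2-/- libraries. The groups did not overlap, and C3 rose by 1.10 (SE 0.14, adjusted p = 0.000196). Both receptors rose, C3ar1 from 2.98 to 4.51 RPM over the wild-type libraries to 7.16 to 8.93 (log2 difference 1.08, SE 0.18, adjusted p = 0.00131) and C5ar1 from 23.7 to 26.5 to 33.6 to 48.5 (0.78, SE 0.15, adjusted p = 0.00296). Cfp was not called (0.22, 95% interval -0.16 to 0.59). Each of the 4 calls held without any 1 library, but none passed in the fit of all 29 libraries (adjusted p 0.12 to 0.509), in which the spread is shared over all groups. Of 14 marker lists, 11 did not overlap between the genotypes in their summed level. Lower in the Rnaset2-/- libraries were those of NK cells (8 of 8 genes, 23.8 to 62.5 RPM against 555 to 597 RPM), B and plasma cells (7 of 8, 108.5 to 147 RPM against 617 to 701 RPM), T cells (7 of 8, 12.6 to 33.5 RPM against 197 to 215 RPM), erythroid cells (7 of 10, 8.12 to 24.3 RPM against 144 to 151 RPM), dendritic cells, KCs and the 20 immediate early genes (10220 to 13590 RPM against 19350 to 19580 RPM). Higher were those of neutrophils and their precursors (12 of 12, 33590 to 58220 RPM against 30730 to 32970 RPM), Ly6Clow monocytes, red pulp macrophages and hepatocytes, the last at 6.0 RPM or less. No NK, T cell or neutrophil marker was at 0 in any of these 6 libraries. The part of these differences in the results was not tested.

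In splenic Ly6Clow macrophages all 5 genes that passed the filter were called, 4 higher and 1 lower in Rnaset2-/- mice, where 8.35% of all genes tested were called (4.05% higher and 4.3% lower). The largest difference was in C3ar1, the receptor for C3a, which was at 1.89, 1.92 and 1.69 RPM in wild-type and at 98.9, 57.4, 15.0 and 21.3 RPM in Rnaset2-/- libraries. The groups were far apart, although the Rnaset2-/- libraries differed among themselves, and the log2 difference was 3.75 (SE 0.54, adjusted p = 0.00635). C1qb was at 74.2, 65.5 and 53.5 RPM in wild-type and at 784, 206, 125 and 182 RPM in Rnaset2-/- libraries. Every Rnaset2-/- value exceeded every wild-type value, with replicate 1 well above the rest (1.94, SE 0.51, adjusted p = 0.0481). C3 was at 391, 458 and 398 RPM in wild-type and at 916, 782, 707 and 887 RPM in Rnaset2-/- libraries (0.99, SE 0.13, adjusted p = 0.00474). The groups did not overlap in C3, and Cfp, at 39.1 to 48.9 RPM against 85.7 to 226 RPM, did not overlap either (1.43, SE 0.28, adjusted p = 0.0194). C5ar1, the receptor for C5a, went the other way, from 70.8, 49.1 and 71.9 RPM to 43.3, 36.1, 29.7 and 23.5 RPM, and fell by 0.93 (SE 0.21, adjusted p = 0.029).

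Some of these calls in splenic Ly6Clow macrophages depended on single libraries. C1qb was not called when any 1 wild-type library or Rnaset2-/- replicate 2 or 4 was left out (adjusted p 0.0641 to 0.162), Cfp not when any 1 wild-type library was left out (0.0561 to 0.0931), and C5ar1 not without replicate 1 or 3 of the wild-type group or 2 or 3 of the Rnaset2-/- group (0.0537 to 0.127). Without the filter C1qb (adjusted p = 0.087) and C5ar1 (adjusted p = 0.0514) were not called, and in the fit of all 29 libraries C3 (adjusted p = 0.41) and C5ar1 (adjusted p = 0.321) were not. With RPM as deposited, 3 genes were called higher and 1 lower. Without Rnaset2-/- replicate 1, in which C1qb, C1qc, Cfp and C3ar1 were all highest, C1qb was still called (1.41, adjusted p = 0.00207). Markers of other cells differed between these groups. The summed level of 12 of 12 neutrophil and precursor markers was 1084 to 2470 RPM in wild-type and 3460 to 40760 RPM in Rnaset2-/- libraries, highest in replicate 1, with no marker at 0. That of 8 of 8 sinusoidal endothelium markers was 391 to 457 RPM against 1524 to 2365 RPM, with 1 to 4 markers at 0 in each Rnaset2-/- library and Stab2 at 0 in all of them. The KC list (10 of 10 genes) was at 110.0 to 154.5 RPM against 181 to 672 RPM, highest in replicate 1, and the B and plasma cell list (7 of 8) at 53.7 to 67.5 RPM against 208.5 to 1385 RPM, while the NK cell list was lower, at 89.7 to 146 RPM against 7.18 to 41.9 RPM. The other 9 lists overlapped. The part of these markers in the results was not tested.

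In hepatic Ly6Chi macrophages, 6 of the 8 genes passed the filter and only C2 was called, where 30.6% of all genes tested were called (15.7% higher and 14.9% lower, or 2661 genes higher and 905 lower with RPM as deposited). With RPM as deposited the median log2 difference of all genes was 0.31 instead of 0.01, and C3ar1 was called as well. C2 was at 0.540, 0.584 and 0.716 RPM in wild-type and at 6.53, 4.25 and 10.8 RPM in Rnaset2-/- libraries. The groups did not overlap, and C2 was higher by 2.07 (adjusted p = 0.0148 without the filter, which it passed only through the Rnaset2-/- libraries). C1qb was at 81.4, 73.0 and 104 RPM in wild-type and at 1827, 184 and 234 RPM in Rnaset2-/- libraries. Every Rnaset2-/- value exceeded the wild-type values, but replicate 1 was far above the others, and the difference of 2.0 was not called (SE 0.82, adjusted p = 0.0999). Without that library it was smaller and was called (0.90, adjusted p = 0.00578). The same library decided C3, which was at 1920.2, 1728 and 1760.15 RPM in wild-type and at 4159, 1410.45 and 1421 RPM in Rnaset2-/- libraries. The 2 other Rnaset2-/- values were under the lowest wild-type value, and C3 changed from -0.15 (adjusted p = 0.835) to -0.72 (adjusted p = 0.00895) without replicate 1. C3ar1, at 17.5 to 26.3 RPM against 31.3 to 84.4 RPM, was not called (0.96, adjusted p = 0.0992), except with RPM as deposited (1.27, adjusted p = 0.0308), with DESeq2 (1.13, adjusted p = 0.0257) and without Rnaset2-/- replicate 3 (1.41, adjusted p = 0.0183). In fits without the filter, chosen after seeing the data, C2 was not called without wild-type replicate 3 (2.14, adjusted p = 0.0552) and was called without any other 1 library (1.80 to 2.35). DESeq2 gave no adjusted p for C1qb, which edgeR (2.92, adjusted p = 0.0444) and the fit of all 29 libraries (2.04, adjusted p = 0.00813) called.

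In hepatic Ly6Clow macrophages, 6 genes passed the filter and 5 were called, 4 higher and 1 lower in Rnaset2-/- mice, where 42.7% of all genes tested were called (20.2% higher and 22.5% lower). C1qb was at 433, 761 and 689.8 RPM in wild-type and at 4025, 4529.9 and 4145 RPM in Rnaset2-/- libraries. The Rnaset2-/- values were close to one another and all exceeded the wild-type values, and C1qb rose by 2.75 (SE 0.26, adjusted p = 0.000133). C1qc was at 2.48, 4.10 and 2.42 RPM in wild-type and at 15.6, 15.8 and 12.7 RPM in Rnaset2-/- libraries (1.96, SE 0.25, adjusted p = 0.000537). Both measurable C1q chains rose, and both calls held without any 1 library. Cfp was at 84.8, 143 and 135 RPM in wild-type and at 538, 334 and 210 RPM in Rnaset2-/- libraries (1.46, SE 0.35, adjusted p = 0.0101). The groups did not overlap in Cfp, which is an X-linked gene. C3ar1, at 51.7 to 76.4 RPM against 91.4 to 147 RPM, was just past the threshold (0.68, SE 0.24, adjusted p = 0.0479).

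C5ar1 fell in hepatic Ly6Clow macrophages of Rnaset2-/- mice. It was at 42.1, 45.9 and 57.3 RPM in wild-type and at 27.6, 0.934 and 0.995 RPM in Rnaset2-/- libraries. Replicates 2 and 3 were close to the floor, replicate 1 was not, and the log2 difference was -3.39 (SE 0.92, adjusted p = 0.0177). C3 had the same shape, at 383, 728 and 516 RPM in wild-type and at 1510.3, 56.9 and 70.7 RPM in Rnaset2-/- libraries. Replicate 1 was above and replicates 2 and 3 below all wild-type libraries, and C3 was not called (-1.55, SE 1.09, adjusted p = 0.28). Without replicate 1, C3 was called (-3.05, adjusted p = 6.44e-05) and C5ar1, then above 1 RPM in wild-type libraries only, had a larger difference (-4.66, adjusted p = 0.000233 without the filter). C5ar1 was not called without wild-type replicate 2 or 3, nor without replicate 2 or 3 of the Rnaset2-/- group (adjusted p 0.0537 to 0.0648), nor with DESeq2 (-2.34, adjusted p = 0.17) or edgeR (-2.34, adjusted p = 0.121). C3ar1 was not called without wild-type replicate 1, 2 or 3, nor without replicate 2 or 3 of the Rnaset2-/- group (0.0574 to 0.168), nor without the filter (0.0678), with edgeR (0.0519) or in the fit of all 29 libraries (0.183).

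Marker lists moved with these hepatic results. The summed level of 10 of 10 KC markers was 482 to 833 RPM in wild-type and 6716 to 12710 RPM in Rnaset2-/- Ly6Clow macrophages, highest in replicate 1, and 7968 to 22460 RPM in KCs, with no marker at 0. Of its defining genes, Clec4f was at 4.01 to 15.1 RPM in wild-type and 17.7 to 63.3 RPM in Rnaset2-/- Ly6Clow macrophages. The summed level of 5 of 7 Ly6Chi monocyte markers was 246.5 RPM in replicate 1 of hepatic Ly6Clow Rnaset2-/- macrophages, against 33.7 and 99.6 RPM in the others, and no marker was at 0. In hepatic Ly6Chi Rnaset2-/- macrophages, that of 9 of 9 Ly6Clow monocyte markers was 1662 RPM in replicate 1 and 7420.0 and 7447 RPM in replicates 2 and 3. In Rnaset2-/- against wild-type libraries, 20 immediate early genes summed to 1752 to 2697 RPM against 29210 to 41910 RPM in the Ly6Clow subset and to 4550 to 9691 RPM against 33880 to 36900 RPM in the Ly6Chi subset. In the Ly6Chi subset, sinusoidal endothelium markers were at 454 to 3046 RPM against 234 to 278 RPM, NK cell markers at 128 to 458 RPM against 14.1 to 28.0 RPM, T cell markers at 156 to 372 RPM against 12.1 to 29.9 RPM, erythroid markers at 96.6 to 329.8 RPM against 2.86 to 7.34 RPM and B and plasma cell markers at 134 to 1028 RPM against 58.9 to 104.5 RPM. In the Ly6Clow subset, these were at 1140 to 4443 RPM against 517 to 685 RPM, 15.9 to 37.7 RPM against 4.56 to 7.67 RPM, 36.0 to 119 RPM against 15.4 to 33.1 RPM, 65.8 to 183 RPM against 3.56 to 6.62 RPM and 119 to 418 RPM against 27.9 to 33.8 RPM. Ly6Chi monocyte markers were lower in Rnaset2-/- libraries of both subsets, dendritic cell markers in the Ly6Chi subset and Ly6Clow monocyte, stellate and fibroblast markers in the Ly6Clow subset, where red pulp macrophage markers were higher. The part of these cells and genes in the results was not tested.

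**Figure D2:**
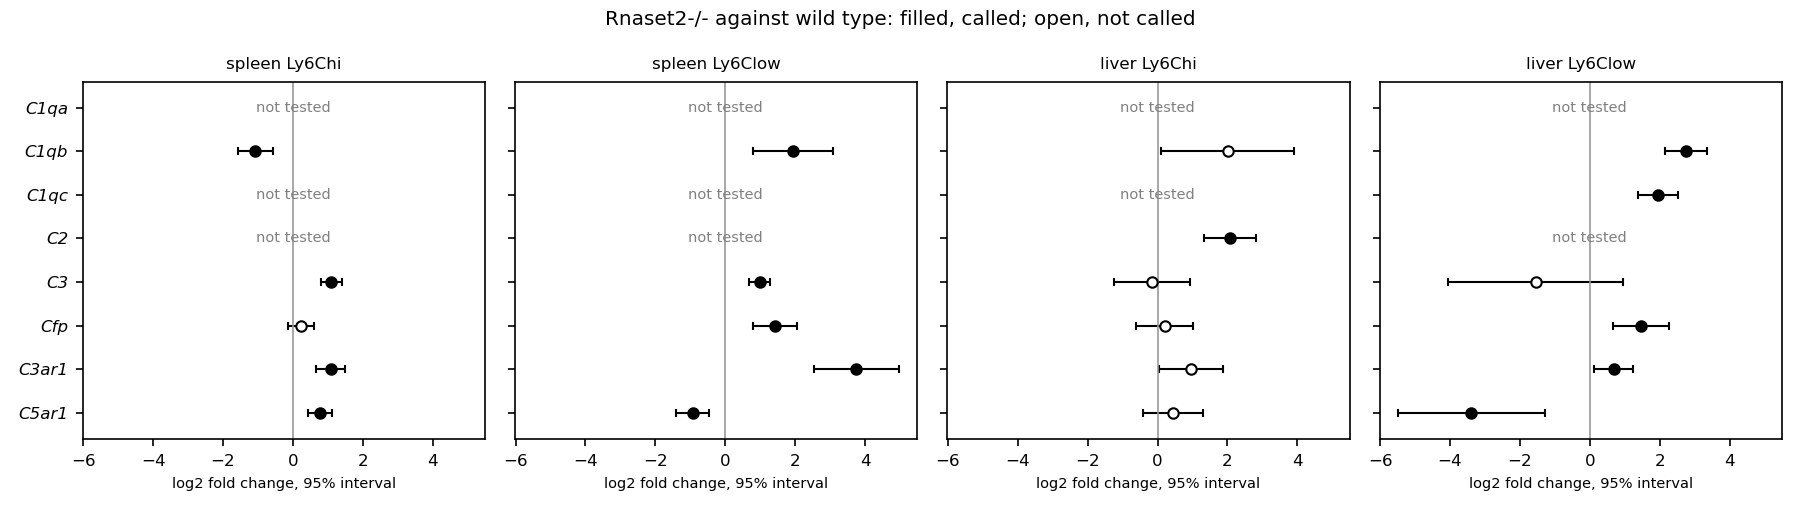
Log2 fold change of Rnaset2-/- over wild-type libraries (x axis, with 95% interval) for each complement gene (y axis) in 4 sorted subsets, on a shared scale, with called genes filled. C3ar1 rose by 3.75 in splenic Ly6Clow macrophages and C1qb by 2.75 in hepatic Ly6Clow macrophages, and C5ar1 fell in both Ly6Clow subsets.

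Whether the genotype difference itself differed between the organs or the subsets was tested with an interaction. Between organs, 2 of 6 genes tested differed in Ly6Chi macrophages, where 33.5% of all genes tested were called (17.6% higher and 16% lower, or 3148 genes higher and 841 lower with RPM as deposited). C1qb fell in the spleen (-1.08) and was not called in the liver (2.0, adjusted p = 0.0999), and these values differed by 3.11 (SE 0.96, adjusted p = 0.0245). C2, which reached 1 RPM only in hepatic Rnaset2-/- libraries, differed by 2.44 (adjusted p = 0.00114 without the filter). C2 was at 0.049 to 0.630 RPM in the splenic Ly6Chi libraries, near or below the floor. The C1qb difference was 1.99 without hepatic Rnaset2-/- replicate 1 and was not called without splenic wild-type replicate 3 or splenic Rnaset2-/- replicate 2 (adjusted p 0.0556 and 0.062), and C2 was called without any 1 library in fits without the filter (2.18 to 2.74, adjusted p at most 0.00512). The C1qb difference was not called without the filter (adjusted p = 0.0591), and DESeq2 gave no adjusted p for it. C3 was called without hepatic Rnaset2-/- replicate 1 (-1.80, adjusted p = 1.25e-05). In Ly6Clow macrophages 2 of 6 genes differed between organs, where 26.8% of all genes were called (12.1% higher and 14.7% lower). C3ar1 rose more in the spleen than in the liver, by 3.06 on the log2 scale (SE 0.67, adjusted p = 0.00491 for -3.06 coded as liver minus spleen). C1qc rose in the liver. In the spleen it was at 0.206 to 0.419 RPM in wild-type and 0.282 to 2.35 RPM in Rnaset2-/- libraries. It was not called there in the fit without the filter (0.51, adjusted p = 0.365). The difference between organs of 1.46 (SE 0.41, adjusted p = 0.0195) was not called with an added 0.1 (1.12, adjusted p = 0.273), with DESeq2 (0.55, adjusted p = 0.665), with edgeR (0.60, adjusted p = 0.645) or without hepatic wild-type replicate 3 (1.37, adjusted p = 0.0544). Without hepatic Rnaset2-/- Ly6Clow replicate 1, C3 (-4.05, adjusted p = 3.88e-06) and C5ar1 (-3.75, adjusted p = 5.94e-06) were called as well, and without splenic Rnaset2-/- Ly6Clow replicate 1 C1qb was (1.34, adjusted p = 0.0091).

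Between subsets, 4 of 5 genes tested in the spleen had a genotype difference that was not the same in Ly6Clow and Ly6Chi macrophages, where 14.7% of all genes tested were called (8.35% higher and 6.38% lower, or 1132 genes higher and 445 lower with RPM as deposited). C1qb fell in Ly6Chi and rose in Ly6Clow macrophages, 3.0 apart (SE 0.64, adjusted p = 0.00915). C5ar1 rose in Ly6Chi and fell in Ly6Clow macrophages, -1.73 apart (SE 0.28, adjusted p = 0.00244). C3ar1 rose in both subsets and by more in Ly6Clow macrophages (2.67, SE 0.65, adjusted p = 0.017). Cfp rose in Ly6Clow (1.43) and was not called in Ly6Chi macrophages (0.22), and the difference of 1.19 (SE 0.37, adjusted p = 0.0437) was not called without any 1 of 9 of the 13 libraries (adjusted p 0.0587 to 0.107): the 3 wild-type libraries of either subset, Rnaset2-/- Ly6Chi replicates 2 and 3 and Rnaset2-/- Ly6Clow replicate 2. Cfp was not called without the filter either (adjusted p = 0.0853), and neither Cfp (0.199) nor C5ar1 (0.239) was in the fit of all 29 libraries. C3 rose in both subsets by much the same amount (difference -0.13, 95% interval -0.54 to 0.29). In the liver, none of 7 genes tested was called, where 10.3% of all genes were called (5.08% higher and 5.25% lower, or 340 genes higher and 879 lower with RPM as deposited), and C5ar1 was the nearest (-3.82, SE 1.13, adjusted p = 0.0507). With the replicate number as a block, C5ar1 was called (-3.82, adjusted p = 0.0407). Of these 7 genes, 2 (C5ar1 and Cfp) had an unadjusted p below 0.05 in limma, where 3225 of all 12626 genes had one. edgeR called 0 of them, and 1095 of all 13140 genes it tested. DESeq2 also called 0 but gave no adjusted p for C1qb, C3 and C5ar1. Without replicate 1 of both hepatic Rnaset2-/- subsets, a choice made after seeing the data, 5 genes were called, of which leaving out the Ly6Chi library alone gave 3 and the Ly6Clow library alone the other 2: C1qb (1.93), C1qc (1.65) and Cfp (1.39) had a difference by genotype further towards higher, and C3 (-2.30) and C5ar1 (-4.68) further towards lower, in Ly6Clow than in Ly6Chi macrophages.

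The subsets were also compared within each organ and genotype, and these comparisons share libraries with those above. C1qb was higher and C3 lower in Ly6Clow than in Ly6Chi macrophages in each organ and genotype, except that C3 was not called in the liver of Rnaset2-/- mice. In the spleen of wild-type mice, 4 of 5 genes tested were called, 2 higher and 2 lower in Ly6Clow macrophages, where 33.6% of all genes were called (13.8% higher and 19.8% lower, or 1060 genes higher and 2494 lower with RPM as deposited). C1qb rose by 1.18 (SE 0.14) and C5ar1 by 1.46 (SE 0.15), while C3 fell by 2.0 (SE 0.08) and Cfp by 0.66 (SE 0.11), all with an adjusted p of 0.000482 or less. In the fit of all 29 libraries only C3 was called, and C1qb (1.17, adjusted p = 0.19), C5ar1 (1.46, adjusted p = 0.0786) and Cfp (-0.67, adjusted p = 0.244) were not. Cfp was under 1.5-fold without Ly6Clow replicate 3 (-0.56). C3ar1 was at 2.98 to 4.51 RPM in Ly6Chi and 1.69 to 1.92 RPM in Ly6Clow libraries, a difference of -0.56 (adjusted p = 0.0273) that was under 1.5-fold and was called with an added 0.1 (-0.74), with RPM as deposited (-0.66), with edgeR (-0.79) and without Ly6Chi replicate 2 (-0.64).

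In the spleen of Rnaset2-/- mice 3 of 5 genes tested were called, 2 higher and 1 lower, where 28.1% of all genes were called (13% higher and 15.1% lower). C1qb was at 8.72 to 19.5 RPM in Ly6Chi and at 125 to 784 RPM in Ly6Clow libraries, 4.16 apart (SE 0.54, adjusted p = 0.00136). C3ar1 was higher by 2.12 (SE 0.54, adjusted p = 0.0192), which was not called without Ly6Chi replicate 1, 2 or 3 (adjusted p 0.052 to 0.0691). C3 was lower by 2.13 (log2 difference -2.13, SE 0.16, adjusted p = 0.000127), and all its Ly6Clow libraries were below all Ly6Chi libraries. C5ar1, which was higher in the Ly6Clow subset of wild-type mice, was not called here (-0.27, 95% interval -0.75 to 0.21).

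In the liver of wild-type mice 4 of 6 genes tested were called, 3 higher and 1 lower in Ly6Clow macrophages, where 10.1% of all genes were called (5.24% higher and 4.84% lower, or 789 genes higher and 418 lower with RPM as deposited). C1qb was higher by 2.72 (SE 0.23, adjusted p = 0.000151), C1qc, above 1 RPM in Ly6Clow libraries only, by 1.54 (adjusted p = 0.0199 without the filter) and C3ar1 by 1.43 (SE 0.20, adjusted p = 0.00189). C3 was lower, at 383 to 728 RPM against 1728 to 1920.2 RPM (-1.89, SE 0.22, adjusted p = 0.000831). In fits without the filter, C1qc was not called without Ly6Chi replicate 1, 2 or 3 or Ly6Clow replicate 3 (1.42 to 1.64, adjusted p 0.0675 to 0.0827). C3 was not called in the fit of all 29 libraries (-1.90, adjusted p = 0.0977).

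In the liver of Rnaset2-/- mice 3 of 7 genes tested were called, all higher in Ly6Clow macrophages, where 17% of all genes were called (8.75% higher and 8.26% lower, or 667 genes higher and 1052 lower with RPM as deposited). C1qb was higher by 3.46 (SE 0.87, adjusted p = 0.0369), C1qc by 2.62 (SE 0.56, adjusted p = 0.0237) and Cfp by 1.66 (SE 0.46, adjusted p = 0.0485). None of the 3 was called with edgeR (C1qb 2.53, adjusted p = 0.113, C1qc 2.67, adjusted p = 0.0809, and Cfp 1.60, adjusted p = 0.0708), and C1qb (adjusted p = 0.062) and Cfp (adjusted p = 0.0727) were not called without the filter. Libraries with the same replicate number deviated together in this comparison. With the replicate number as a block, calls over all genes rose from 1853 to 3135 of 10895, and all 7 genes were called: C3 (-3.30, adjusted p = 0.00393), C5ar1 (-3.38, adjusted p = 0.00333) and C2 (-1.16, adjusted p = 0.0418) were lower and C3ar1 (1.15, adjusted p = 0.0359) higher in Ly6Clow macrophages. For C3, each Ly6Clow library was below the Ly6Chi library of its number, at 1510.3, 56.9 and 70.7 RPM against 4159, 1410.45 and 1421 RPM. For C5ar1 the same pairs were 27.6, 0.934 and 0.995 RPM against 86.3, 44.6 and 40.1 RPM, again lower in each pair. Without the block, C1qb, C1qc and Cfp were each called only with all libraries or without Ly6Chi replicate 1 (adjusted p 0.0524 to 0.160 without any other), C3 (-4.81) and C5ar1 (-4.68) were called without Ly6Clow replicate 1, and C3ar1 (1.54) without Ly6Chi replicate 1. Without replicate 1 of both subsets 5 genes were called: C1qb (4.64, adjusted p = 7.03e-05), C1qc, C3, Cfp and C3ar1. C2 was not called there (-1.62, adjusted p = 0.0542). C5ar1 did not pass the filter in that fit, and was called without the filter (-4.26, adjusted p = 0.00305).

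Markers of other cells moved with the subsets as well. In wild-type mice, neutrophil and precursor markers were at 30730 to 32970 RPM in Ly6Chi against 1084 to 2470 RPM in Ly6Clow macrophages of the spleen and at 346 to 2467 RPM against 8.36 to 14.9 RPM in the liver, with up to 4 of 12 markers at 0. NK cell (555 to 597 RPM against 89.7 to 146 RPM), B and plasma cell (617 to 701 RPM against 53.7 to 67.5 RPM) and T cell lists (197 to 215 RPM against 25.6 to 29 RPM) were lower in splenic Ly6Clow macrophages, and sinusoidal endothelium markers were higher in both organs. In Rnaset2-/- mice, KC markers were higher in Ly6Clow than in Ly6Chi macrophages of the spleen (181 to 672 RPM against 98.3 to 117 RPM) and of the liver (6716 to 12710 RPM against 639 to 826 RPM). Higher in this spleen were also sinusoidal endothelium (1524 to 2365 RPM against 148 to 230 RPM), erythroid (92.7 to 1322 RPM against 8.12 to 24.3 RPM), B and plasma cell and immediate early lists. Lower in this liver were neutrophil and precursor (6.74 to 25.2 RPM against 248.5 to 1769 RPM), NK cell (15.9 to 37.7 RPM against 128 to 458 RPM), T cell and immediate early lists. Of 14 lists, including those of the sorted subsets themselves, 12 did not overlap between the subsets in wild-type spleen, 8 in Rnaset2-/- spleen, 8 in wild-type liver and 8 in Rnaset2-/- liver, and their part in the results was not tested.

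**Figure D3:**
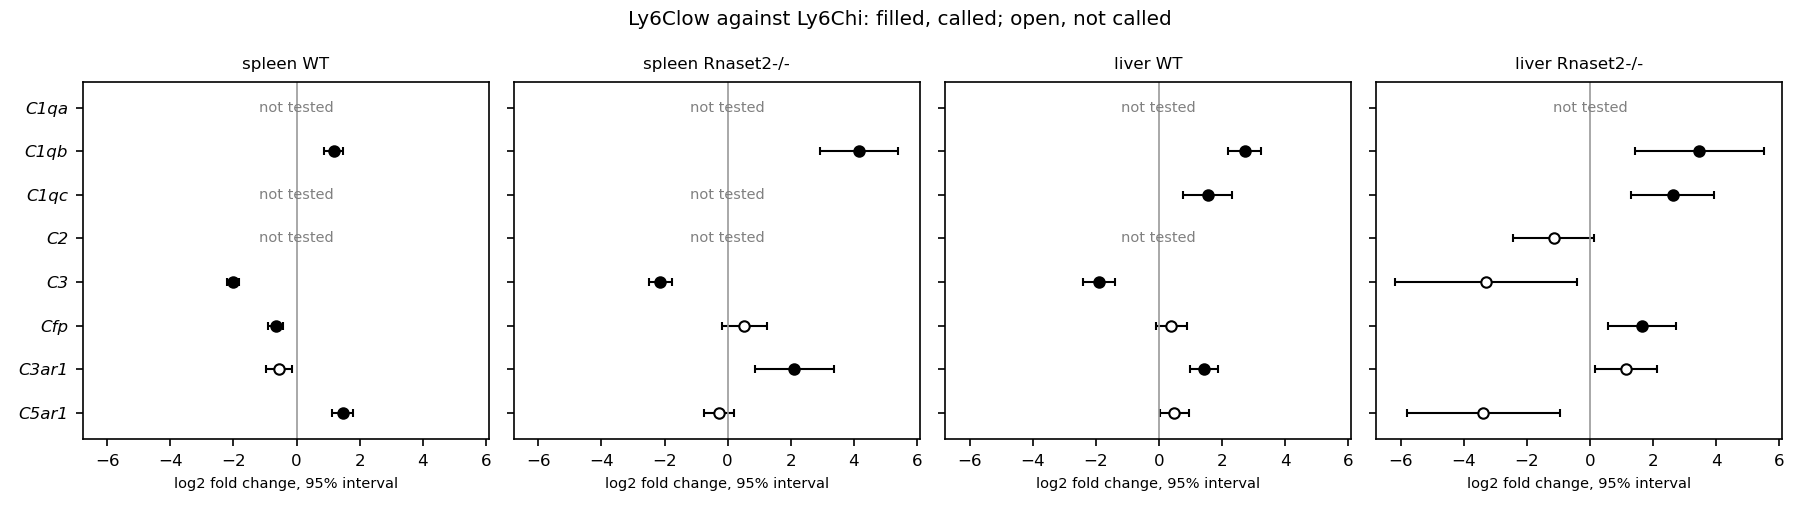
Log2 fold change of Ly6Clow over Ly6Chi libraries (x axis, with 95% interval) for each complement gene (y axis) in 2 organs and 2 genotypes, on a shared scale and without the replicate block, with called genes filled. C1qb lay to the right in all 4 panels, from 1.18 to 4.16, and C3 to the left.

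**Figure D4:**
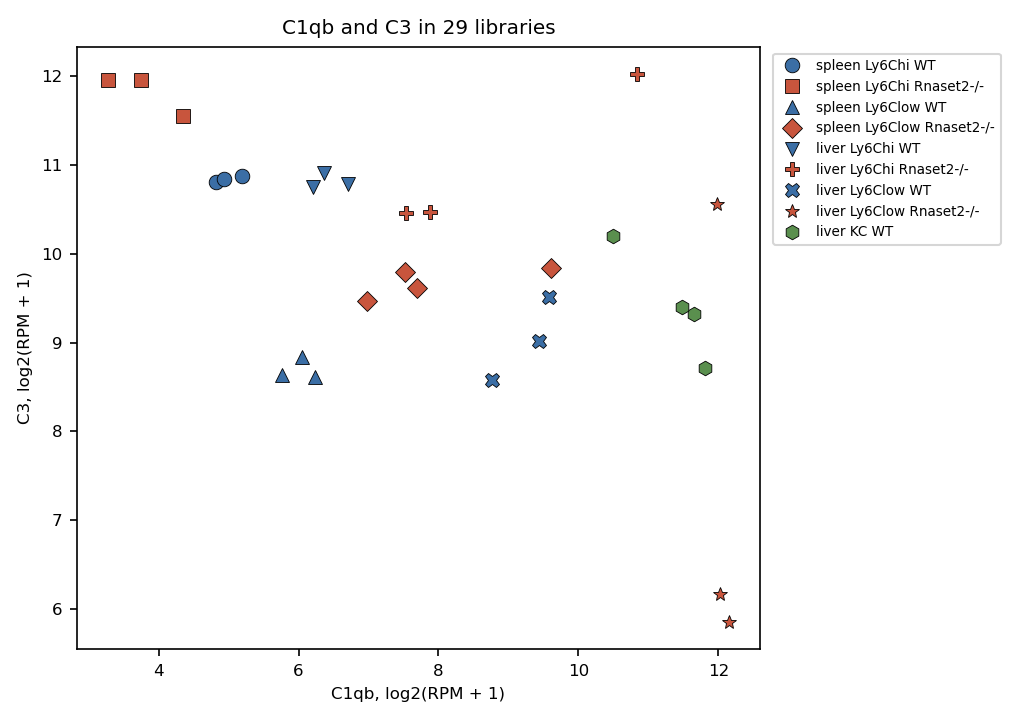
C1qb (x axis) against C3 (y axis), both as log2(RPM + 1), in each of the 29 libraries, with a symbol for each group. Ly6Chi libraries lie at high C3, the hepatic Ly6Clow Rnaset2-/- libraries at the highest C1qb, and replicate 1 of the latter has 1510.3 RPM of C3 against 56.9 and 70.7 RPM in the others.

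Between organs, C1qb was higher in the liver than in the spleen in both subsets and both genotypes. Among Rnaset2-/- libraries, Xist was near 0 in all from the liver and at 352 RPM or more in all but 1 from the spleen, so that organ and sex cannot be told apart there. In Ly6Chi macrophages of wild-type mice 3 of 5 genes tested were called, all higher in the liver, where 37.8% of all genes were called (17.1% higher and 20.7% lower, or 1162 genes higher and 3413 lower with RPM as deposited). C1qb was higher by 1.72 (SE 0.17, adjusted p = 4.13e-05), C3ar1 by 2.60 (SE 0.20, adjusted p = 9.34e-06) and C5ar1 by 0.61 (SE 0.18, adjusted p = 0.0218). The C5ar1 groups overlapped, and the difference was 0.34 with RPM as deposited (adjusted p = 0.162) and not called without splenic replicate 1, 2 or 3 or hepatic replicate 2 or 3 (0.49 to 0.63). In Ly6Chi macrophages of Rnaset2-/- mice 3 of 6 genes were called, all higher in the liver, where 28.1% of all genes were called (15.2% higher and 12.9% lower), with C1qb at 4.88 (SE 0.86, adjusted p = 0.00524), C2, above 1 RPM in the liver only, at 2.75 (adjusted p = 0.00301 without the filter) and C3ar1 at 2.58 (SE 0.39, adjusted p = 0.00257). C1qb was at 184 to 1827 RPM in these hepatic libraries, highest in replicate 1, and at 8.72 to 19.5 RPM in the splenic ones. The size of its difference depends on that library. C3 was not called (-0.91) except without hepatic replicate 1 (-1.51, adjusted p = 0.000185).

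In Ly6Clow macrophages of wild-type mice 4 of 6 genes were called, all higher in the liver, where 34.1% of all genes were called (18.8% higher and 15.3% lower). C3ar1 had the largest difference, from 1.69 to 1.92 RPM in the spleen to 51.7 to 76.4 RPM in the liver (4.60, SE 0.20, adjusted p = 5.23e-07). C1qb was higher by 3.28 (SE 0.22) and Cfp by 1.43 (SE 0.21), with an adjusted p of 0.000608 or less, and C1qc, above 1 RPM in the liver only, by 1.62 (adjusted p = 0.00484 without the filter). C3 was called without hepatic replicate 1 (0.64, adjusted p = 0.0147) and not otherwise (0.38). In Ly6Clow macrophages of Rnaset2-/- mice 4 of 6 genes were called, 3 higher and 1 lower in the liver, where 36.1% of all genes were called (18.5% higher and 17.6% lower). C1qb (4.13, SE 0.51), C1qc (3.10, SE 0.32) and Cfp (1.5, SE 0.37) were higher, with an adjusted p of 0.0134 or less. C5ar1 was lower (-2.77, SE 0.86, adjusted p = 0.0327), which was called only with all libraries or without hepatic replicate 1 (-4.06), and otherwise lay between -2.90 and -2.09 (adjusted p 0.0528 to 0.123), and which was not called without the filter (adjusted p = 0.0603), with DESeq2 (-1.71) or with edgeR (-1.74). C3 was called without hepatic replicate 1 (-3.64) and C3ar1 without splenic replicate 1 (1.98, adjusted p = 0.00776).

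Markers of other cells also differed between the organs. Neutrophil and precursor markers were lower in the liver in each of the 4 comparisons, at 346 to 2467 RPM against 30730 to 32970 RPM in wild-type Ly6Chi and 8.36 to 14.9 RPM against 1084 to 2470 RPM in wild-type Ly6Clow macrophages, and KC markers were higher in each, at 566 to 810 RPM against 137 to 146 RPM and 482 to 833 RPM against 110.0 to 154.5 RPM. NK cell markers were lower in the liver of wild-type mice (14.1 to 28.0 RPM against 555 to 597 RPM in the Ly6Chi subset) and higher in Ly6Chi macrophages of Rnaset2-/- mice (128 to 458 RPM against 23.8 to 62.5 RPM). Immediate early genes were higher in the liver of wild-type mice (33880 to 36900 RPM against 19350 to 19580 RPM in the Ly6Chi subset) and lower in that of Rnaset2-/- mice (1752 to 2697 RPM against 17300 to 24840 RPM in the Ly6Clow subset). Of 14 lists, 7 to 14 did not overlap between the organs, and their part in the results was not tested.

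KCs of wild-type mice had more C1qb, C1qc, C2, Cfp and C3ar1 than both wild-type hepatic subsets. Of 7 genes tested, 6 were called in KCs over Ly6Clow macrophages, 5 higher and 1 lower, where 50% of all genes were called (26% higher and 24% lower). C2, above 1 RPM in KCs only, was higher by 3.85 (adjusted p = 0.000248 without the filter), Cfp by 2.41 (SE 0.34, adjusted p = 0.000191), C1qc by 2.34 (SE 0.32, adjusted p = 0.000132), C1qb by 1.52 (SE 0.33, adjusted p = 0.00321) and C3ar1 by 1.19 (SE 0.22, adjusted p = 0.00106). C5ar1 was lower by 0.68 (log2 difference -0.68, SE 0.23, adjusted p = 0.0277), although its libraries, at 34.1 to 60.3 RPM in KCs and 42.1 to 57.3 RPM in Ly6Clow macrophages, overlapped as deposited. Without scaling, 5477 genes of the whole table were called higher and 1385 lower, and of the complement genes 5 higher and 0 lower, with C5ar1 at -0.10 (adjusted p = 0.717), and C5ar1 was not called without KC replicate 2 or Ly6Clow replicate 2 or 3 (-0.70 to -0.55). Over Ly6Chi macrophages 6 of 7 genes were called, 5 higher and 1 lower, where 54.6% of all genes were called (29.3% higher and 25.3% lower, or 6169 genes higher and 1335 lower with RPM as deposited): C1qb (4.25), C1qc (4.05), C2 (3.86), Cfp (2.82) and C3ar1 (2.65) were higher and C3 (-2.09) was lower. The adjusted p was 6.08e-05 or less, or, without the filter, 8.86e-05 for C1qc and 0.000135 for C2, which were above 1 RPM in KCs only, and all 6 calls held without any 1 library, for C1qc and C2 also without the filter (adjusted p at most 0.00107). Immediate early genes summed to 2624 to 4049 RPM in KCs against 29210 to 41910 RPM in the Ly6Clow and 33880 to 36900 RPM in the Ly6Chi subset, and 14 of 14 marker lists did not overlap with either subset. Higher in KCs than in the Ly6Clow subset were, beside KC markers, those of endothelium (3138 to 8013 RPM against 517 to 685 RPM), B and plasma cells (577 to 1193 RPM against 27.9 to 33.8 RPM), T cells (192 to 275 RPM against 15.4 to 33.1 RPM), NK cells (118 to 529 RPM against 4.56 to 7.67 RPM), and the erythroid, neutrophil, dendritic cell, stellate, hepatocyte and red pulp macrophage lists, and their part in the results was not tested.

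KC replicate 3 stood apart. Its C1qb was 1442 RPM against 2868, 3217 and 3600.2 RPM in the others, its Cfp 471 RPM against 1185 to 1202 RPM and its C3 1179 RPM against 418 to 677 RPM. It was thus the lowest in C1qb and Cfp and the highest in C3. The summed level of 12 of 15 hepatocyte markers was 6089 RPM in it and 1826 to 2032 RPM in the other KC libraries, against 16.1 to 201 RPM in the hepatic subsets, and that of 10 KC markers was 7968 RPM against 20250 to 22460 RPM. No marker of either list was at 0 in any KC library, and the part of hepatocyte RNA in the KC values was not tested.

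Hepatic Ly6Clow macrophages of Rnaset2-/- mice were compared with the same KC libraries, and 3 of 7 genes tested were called, 1 higher and 2 lower, where 45.6% of all genes were called (19.4% higher and 26.3% lower). C1qb was higher than in KCs (1.21, SE 0.36, adjusted p = 0.0202), C2 lower (-2.90, SE 0.51, adjusted p = 0.00171) and C5ar1 lower (-2.83, SE 0.84, adjusted p = 0.0204), while C1qc (-0.34, 95% interval -0.98 to 0.29), C3 (-1.36), Cfp (-0.96) and C3ar1 (-0.53) were not called. This count depended on the scaling: with RPM as deposited, where 977 genes of the whole table were called higher and 5156 lower and the median log2 difference was -0.56, 5 complement genes were called, 0 higher and 5 lower, among them C1qc (-0.85), Cfp (-1.49) and C3ar1 (-1.06), and C1qb was not (0.68, adjusted p = 0.111). C1qb was not called without Ly6Clow replicate 2 (1.24, adjusted p = 0.0579), and C5ar1 not without KC replicate 4 or Ly6Clow replicate 2 or 3 (-2.67 to -2.12), nor with DESeq2 (-1.72) or edgeR (-1.71). Neither was called without the filter (adjusted p 0.0879 and 0.0543). Without KC replicate 3, Cfp (-1.31) and C3ar1 (-0.70) were called lower, and without Ly6Clow replicate 1 C3 (-2.84) and Cfp (-1.26) were. Of 14 marker lists, 9 did not overlap between these groups. Hepatocyte (16.1 to 121 RPM against 1826 to 6089 RPM in KCs) and stellate and fibroblast (2.96 to 6.47 RPM against 139 to 406 RPM) lists were lower than in KCs. T cell (36.0 to 119 RPM against 192 to 275 RPM), NK cell (15.9 to 37.7 RPM against 118 to 529 RPM) and B and plasma cell lists (119 to 418 RPM against 577 to 1193 RPM) were lower too. So were dendritic cell (240 to 494 RPM against 715.5 to 930 RPM), neutrophil and precursor (6.74 to 25.2 RPM against 27.3 to 220 RPM) and Ly6Chi monocyte lists (33.7 to 246.5 RPM against 268 to 480 RPM). Ly6Clow monocyte markers were higher (4510 to 6374 RPM against 1180 to 2109 RPM). The part of these cells in the differences was not tested.

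Hepatic Ly6Chi macrophages of Rnaset2-/- mice differed from KCs in 5 of 7 genes tested, 1 higher and 4 lower, where 32.1% of all genes were called (14.9% higher and 17.2% lower, or 904 genes higher and 3447 lower with RPM as deposited). C3 was higher (1.97, SE 0.48, adjusted p = 0.014). C1qc (-3.05), Cfp (-2.59), C2 (-1.68) and C3ar1 (-1.65) were lower, with an adjusted p of 0.012 or less. C1qb was lower by 2.22 without being called (log2 difference -2.22, adjusted p = 0.0541). It was called without Ly6Chi replicate 1 (-3.34, adjusted p = 0.000193) and with the replicate number as a block (-2.05, adjusted p = 0.0327). C2 was not called without Ly6Chi replicate 2 (-1.36, adjusted p = 0.0515). Again 9 of 14 marker lists did not overlap. KC (639 to 826 RPM against 7968 to 22460 RPM in KCs), hepatocyte (28.8 to 91.8 RPM against 1826 to 6089 RPM) and sinusoidal endothelium lists (454 to 3046 RPM against 3138 to 8013 RPM) were lower in Ly6Chi macrophages. Stellate and fibroblast (6.72 to 70.8 RPM against 139 to 406 RPM), dendritic cell (358 to 377 RPM against 715.5 to 930 RPM) and red pulp macrophage lists (1342 to 1725 RPM against 2666 to 5030 RPM) were lower too. Ly6Chi monocyte (1057 to 1614 RPM against 268 to 480 RPM), neutrophil and precursor (248.5 to 1769 RPM against 27.3 to 220 RPM) and immediate early genes (4550 to 9691 RPM against 2624 to 4049 RPM) were higher. The part of these lists was not tested either.

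**Figure D5:**
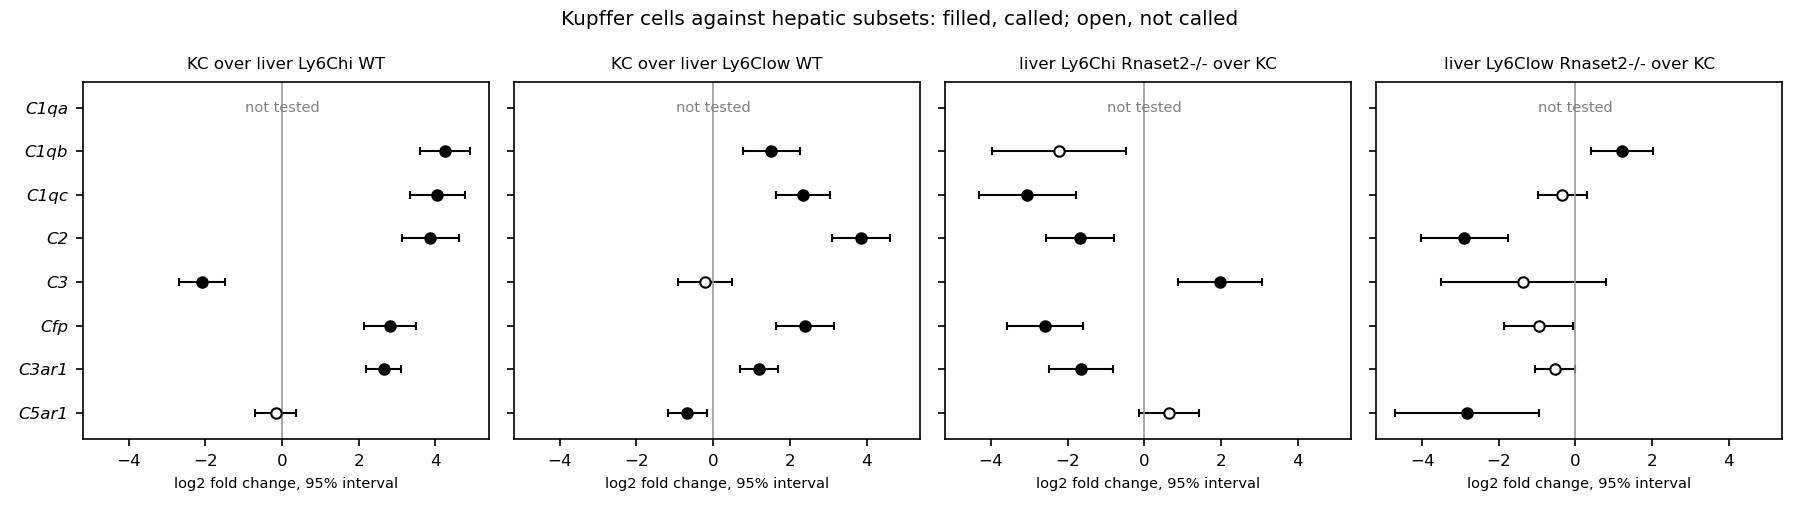
Log2 fold change (x axis, with 95% interval) of each complement gene (y axis) in KCs over both wild-type hepatic subsets and in both Rnaset2-/- hepatic subsets over KCs, on a shared scale, with called genes filled. C1qb was 1.21 above KCs in Ly6Clow macrophages of Rnaset2-/- mice, in which C2 was 2.90 lower.

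Of 55 other complement genes listed, 45 were in the table. In KCs over hepatic Ly6Clow wild-type macrophages, 10 of the 38 that passed the filter did so through KC libraries only. They were therefore counted without the filter, a choice made after seeing the data, and 29 of the 43 with reads were called higher and 4 lower, where 15.2% of all genes were called higher and 18.5% lower. The 12 of 15 hepatocyte markers measured (1826 to 6089 RPM in KCs against 62.7 to 201 RPM) and the 8 of 8 stellate and fibroblast markers (139 to 406 RPM against 7.20 to 20.2 RPM) moved with these counts, and their part was not tested. C6, of the membrane attack complex, was at a mean of 800.4 RPM in KCs and 0.757 RPM in the Ly6Clow subset (8.36), Vsig4, a receptor for C3 fragments, at 2218 and 22.6 RPM (5.92) and the collectin Colec10 at 72.7 and 0.199 RPM (5.52). The integrin chains of complement receptors were lower, with log2 differences of -4.19 for Itgam, -3.02 for Itgax and -1.97 for Itgb2.

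In Rnaset2-/- over wild-type mice, also without the filter, these other genes were called in 11 of 38 in splenic Ly6Chi, 0 of 39 in splenic Ly6Clow, 6 of 44 in hepatic Ly6Chi and 8 of 44 in hepatic Ly6Clow macrophages. Over all genes, 12.1%, 2.83%, 17.1% and 26.6% were called in these comparisons. In splenic Ly6Clow macrophages limma gave 11 of the 39 an unadjusted p below 0.05, where 3612 of all 18211 genes had one. Of the 18 that passed the filter there, 1 was called, where 8.35% of all genes were called. With the filter, 10 of 21 were called in hepatic Ly6Chi macrophages, where 30.6% of all genes were called and 5 of the 21 passed it through Rnaset2-/- libraries only. In splenic Ly6Chi macrophages 3 rose, among them C1rl, which is related to the protease C1r, from 33.8 to 71.0 RPM (1.16), and 8 fell, among them Fcna, from 21.2 to 1.55 RPM (-3.03). In hepatic Ly6Chi macrophages 6 rose. The lectin pathway protease Masp1 rose from 1.13 to 54.4 RPM (4.13). In hepatic Ly6Clow macrophages 3 rose, among them C6 from 0.757 to 128 RPM (5.62) and Vsig4 from 22.6 to 145 RPM (2.51), and 5 fell, among them clusterin (Clu) from 85.2 to 12.4 RPM (-2.68).

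Over the 9 group means of log2(RPM + 1), the members that followed each other most closely were C1qc with Cfp (Pearson r = 0.945) and with C1qb (r = 0.921), while C1qb and C3 ran in opposite directions (r = -0.709). Of 9677 other genes, the mean of the C1q chains was most like Fblim1 (r = 0.992) and Etv5 (r = 0.990), C3 like Nrg1 (r = 0.978), Cfp like Cltc (r = 0.980) and C3ar1 like Fnbp1l (r = 0.980). These are descriptions over 9 groups that share tissue, sort and libraries.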

How the data were processed

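RNA from sorted macrophages was measured by the authors with an amplicon panel for the mouse transcriptome (Ion AmpliSeq, 1 amplicon per gene) on an Ion Proton sequencer, and the deposited values are RPM (reads per 1000000) for 23930 genes in 29 libraries. The submitters' processing notes name the build mm10; aligner settings are not given in the sources used here. Libraries were grouped by their labels (organ, subset, genotype). Whole reads were recovered from the RPM steps (100.0% of values within 0.1 read), giving 11175843 to 21167602 reads per library.

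After scaling of the RPM by relative log expression, log2(RPM + 1) was fitted with limma 3.58.1 (R 4.3.3), using only the groups compared, over genes that reached 1 RPM in 3 or more of those libraries, with p-values adjusted by Benjamini-Hochberg over all genes tested; intervals are 95%. A gene was called at more than 1.5-fold and an adjusted p below 0.05. The alternatives were a pseudocount of 0.1, no filter, RPM as deposited, a single model for the 29 libraries, a block for the replicate number, DESeq2 1.42.0 and edgeR 4.0.16 on the recovered reads, the adjusted p alone, and leaving out each library, which was repeated without the filter, a choice made after seeing the data, for genes above it in 1 compared group only. The fits were tested on simulated data. Same-numbered libraries deviated together in 1 comparison, hepatic Ly6Clow against Ly6Chi Rnaset2-/- macrophages (r 0.213 to 0.508 in 3 pairs, each library correlating best with its own number); the pairing comes from the data and not from the labels.

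The 9 genes, the marker lists and the list of other complement genes were chosen with earlier results of these data known. Of the other complement genes, those called with a mean of at least 10 RPM in a compared group could be named, up to 3 per direction and comparison. For each complement gene and for the mean of the C1q chains, the 3 genes most like it over group means were eligible. Promoters come from RefSeq (GRCm38.p6), which held 6 of the 8 genes; C1qa and C2 are without one here. Proteins were not used here. 1 of the other complement genes is not reported here.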

Additional observations from a re-analysis of the deposited data

Results flagged for a closer look

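C1qb in replicate 1 of splenic Ly6Clow Rnaset2-/- macrophages, at 784 RPM, lay far above the other libraries of its group, of which the nearest was at 206 RPM. Cfp in replicate 3 of KCs, at 471 RPM, lay far below the others, of which the nearest was at 1185 RPM. In each case the gap to the nearest library was a larger share of the range of the group (0.877 and 0.977) than Dixon's 95% critical value for 4 libraries. Groups of 4 libraries were examined for 8 genes, which makes 16 sets of values, and chance flags about 1 in 20.

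The effect of RNase T2 deficiency differed between organs in Ly6Chi macrophages for C1qb (log2 difference of fold changes, liver minus spleen, 3.11) and C2 (2.44), and in Ly6Clow macrophages for C1qc (1.46) and C3ar1 (-3.06). Between splenic subsets (Ly6Clow minus Ly6Chi) it differed for C1qb (3.0), Cfp (1.19), C3ar1 (2.67) and C5ar1 (-1.73). These 8 differences come from interaction terms in limma. In the liver, genotype and sex cannot be told apart, which touches the organ differences.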

How the results depend on the processing

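No log2 fold change of the complement genes that was called changed its sign under any setting run. The counts of genes called varied more. In the fit of all 29 libraries, 0 genes were called for genotype in splenic Ly6Chi macrophages (4 in the comparison alone), 3 in splenic Ly6Clow (5), 3 in hepatic Ly6Chi (1), 1 for subset in wild-type spleen (4), 7 for subset in Rnaset2-/- liver (3), 7 for organ in Rnaset2-/- Ly6Clow (4), 4 for the genotype difference between organs in Ly6Clow (2), and 2 and 1 for that between subsets in spleen (4) and liver (0). With no filter, 3 were called for genotype in splenic Ly6Clow and 1 for the organ difference in Ly6Chi (2). With RPM as deposited, 2 were called for genotype in hepatic Ly6Chi, 5 for hepatic Ly6Clow Rnaset2-/- macrophages against KCs (3) and 1 for the subset difference in liver. DESeq2 called 2 for genotype in hepatic Ly6Chi, and 1 for the organ difference in each subset. It gave no adjusted p for C1qb in these Ly6Chi comparisons and for organ in Rnaset2-/- Ly6Chi macrophages, for C5ar1 in the organ difference in Ly6Clow, for C3 in 3 other comparisons and for C1qb, C3 and C5ar1 in the subset difference in liver, so that its counts there are not over all genes tested. edgeR called 2 for genotype in hepatic Ly6Chi, 3 in hepatic Ly6Clow (5), 0 for subset in Rnaset2-/- liver and 1 for the organ difference in Ly6Clow. With a pseudocount of 0.1, 1 was called for the latter. The fit without the filter, the fit of all 29 libraries and DESeq2 also test C1qa, C1qc or C2 where the filter left them out. For these changes the cause was not tested.

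With the replicate block, 7 genes were called for subset in Rnaset2-/- liver, where 3135 of all 10895 genes were. For the subset difference in liver 1 (C5ar1) was called, where 1358 of all 12626 genes were, and the other counts stayed within 1.5 times. Libraries of the other comparisons share only a number. There the block lost C5ar1 for genotype in splenic Ly6Clow (adjusted p = 0.0546). Against KCs it gained Cfp in hepatic Ly6Clow (-0.83, adjusted p = 0.0302) and C1qb in hepatic Ly6Chi Rnaset2-/- macrophages (-2.05, adjusted p = 0.0327). Without replicate 1 of both hepatic Rnaset2-/- subsets, chosen after seeing the data, 5 genes were called for subset in Rnaset2-/- liver and 5 for the subset difference in liver.

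Leaving out 1 library gave 2 to 5 genes for genotype in splenic Ly6Clow, 0 to 2 in hepatic Ly6Chi and 3 to 6 in hepatic Ly6Clow macrophages, 0 to 4 for subset in Rnaset2-/- liver, 1 to 5 for hepatic Ly6Clow Rnaset2-/- macrophages against KCs, 1 to 2 and 1 to 4 for the organ difference in Ly6Chi and Ly6Clow, and 0 to 3 for the subset difference in liver. Of 904 values recomputed without 1 library, 72 fell short of the threshold and 26 newly passed it. Few reads, 56 or fewer per group, lie behind C1qa in all groups, C1qc and C2 in the spleen and C2 in wild-type hepatic subsets. The same holds for C1qc in wild-type hepatic Ly6Chi macrophages (11 reads). Many of these values lay near the 3-read floor. C1qc in replicate 1 of splenic Ly6Clow Rnaset2-/- macrophages, at 2.35 RPM (33 reads), did not.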
